A study of Mus musculus with 8 samples.

Results

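The domain described here lies on mouse chromosome 16 from 17890329 to 17902102 (mm9), a stretch of H3K4me3 that was assigned to Tssk1 and Tssk2 when it was chosen. It was chosen for its width in wild-type testis, with earlier results of these data known. H3K4me3 is the trimethylation of lysine 4 of histone H3 and ChIP-seq mapped it in testis tissue of adult mice of the C57BL/6 strain. The KO mice were H3f3b null and the WT mice carried 2 wild-type H3f3b alleles. Each genotype had 2 libraries, KO 67 and KO 73 against WT 66 and WT 74, with 1 list of enriched regions per library. Merging the 4 lists where regions overlapped or touched gave 16519 union regions, and the Tssk domain is 1 of them, made of 7 listed regions. Whether each number stands for a separate animal is not given, so a p-value here speaks of libraries, whose differences may be technical.

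H3f3b encodes H3.3, a histone H3 variant deposited independently of DNA replication, and H3K4me3 marks active promoters. Tssk1 and Tssk2 encode testis-specific serine kinases of spermatids, the haploid cells that remodel into sperm, and male mice that lack both are sterile. In the RefSeq gene table for GRCm38, the neighbours run in the order Car15, Dgcr2, Tssk1, Tssk2, Ess2, Gsc2 and Slc25a1. Gene positions in mm9 were not used here, so the order gives neighbours only. The pieces described below are placed by mm9 position and are not assigned to a gene, and markers of testis cell types could not be looked up in the lists. In whole testis, fewer cells that carry a mark and less mark per cell cannot be told apart.

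The promoter windows of the pair are shown because the domain was assigned to these genes. They come from RefSeq (GRCm38.p6, plus strand, 250 bases before to 50 after the start of the gene) and are placed at chr16:17893953-17894252 for Tssk1 and chr16:17898387-17898686 for Tssk2 in that build, which is not the build of the regions. Capitals mark 2 runs of letters that both windows hold.
Tssk1: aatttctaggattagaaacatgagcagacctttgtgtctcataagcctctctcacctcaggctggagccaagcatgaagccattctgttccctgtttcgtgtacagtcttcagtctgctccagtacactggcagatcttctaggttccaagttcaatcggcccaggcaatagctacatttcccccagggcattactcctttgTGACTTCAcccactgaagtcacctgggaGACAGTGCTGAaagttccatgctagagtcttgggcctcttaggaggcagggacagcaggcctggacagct
Tssk2: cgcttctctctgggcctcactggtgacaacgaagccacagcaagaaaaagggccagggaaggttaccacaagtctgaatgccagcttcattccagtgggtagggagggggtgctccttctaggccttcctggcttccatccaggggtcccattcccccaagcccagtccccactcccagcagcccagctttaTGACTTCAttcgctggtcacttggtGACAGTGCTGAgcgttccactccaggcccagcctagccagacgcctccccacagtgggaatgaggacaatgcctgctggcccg
The longest run shared by both windows was GACAGTGCTGA, of 11 letters, which began 20 bases before the start in Tssk1 and 33 bases before it in Tssk2. It was found, on either strand, in 6 of 32851 promoter windows, which is 0.0183%. The other run, TGACTTCA, began 48 bases before the start in Tssk1 and 58 bases before it in Tssk2, on the strand shown. Tssk1 also held this run on the opposite strand, shortly after the marked one and not in capitals, and Tssk2 did not. On either strand, TGACTTCA was found in 1.52% of the windows. The windows shared 3 further runs of 8 letters, and these runs were picked after the sequences had been seen. The cyclic AMP response element TGACGTCA was not in either window on either strand, nor were its core TGACG and the TATA box letters TATAAA, which 1.79%, 20.8% and 13.6% of all windows held. TGACG lies within TGACGTCA.

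CpG dinucleotides, at which unmethylated DNA can recruit H3K4 methyltransferases, were fewer than in the median window in Tssk1 and close to it in Tssk2. Tssk1 had 2 and Tssk2 had 6, where the median window had 7. Windows with as few CpGs made up 23.3% of all for Tssk1 and 47.9% for Tssk2. The neighbours on either side had more, with 23 in Dgcr2 and 13 in Ess2. Of the 6 Tssk genes looked for, 5 had a window, and the other 3 of these held 10 CpGs (Tssk3), 2 (Tssk4) and 14 (Tssk6).

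In KO 67 the Tssk domain was reduced to a piece at its left end, the end with the lower coordinates. In KO 73 it was broken into a like piece at the left end and 3 islands further right, which together covered slightly more than that piece. The KO 67 list held 1 region there, from 17890677 to 17893488, which spanned 2812 bp. The KO 73 list held 4 regions, of 2640 bp at the left end and 501, 764 and 1617 bp in the islands, which summed to 2882 bp, so that 5522 bp were covered in all. WT 66 had a single region of 11774 bp from 17890329 to 17902102, and WT 74 a single region of 11261 bp from 17890700 to 17901960. Covered length averaged 4167 ± 1916 bp in KO and 11517.5 ± 363 bp in WT (SD, n = 2 each), a difference of -7350.5 bp, with KO at 36.2% of WT. The KO and WT values did not overlap, and the KO libraries lay further apart than the WT libraries. WT width was the reason for choosing the domain, which by itself favours a smaller value in KO, so these values are a description and no test was made of them.

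**Figure D1:**
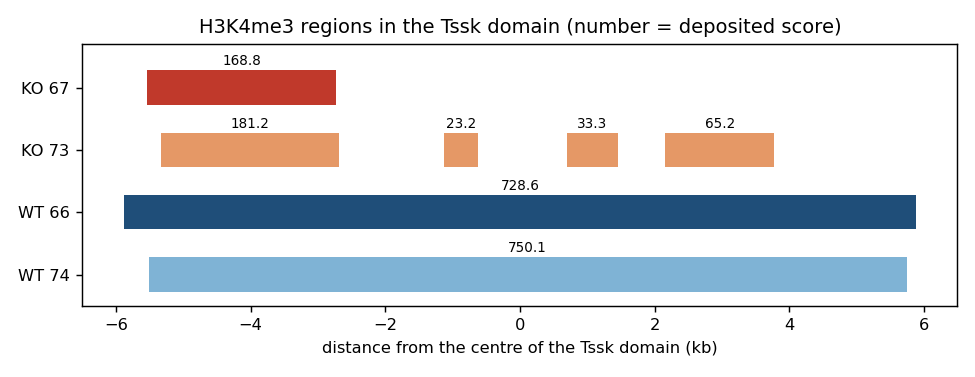
Regions of each library in the Tssk domain, by distance from its centre in kb, with KO lists above WT lists and the deposited score of each region above its bar. The KO 67 bar and the first KO 73 bar lie at the left end of the WT bars, and the remaining 3 KO 73 bars have scores of 23.2, 33.3 and 65.2.

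The left end was the part that all 4 libraries held. The bases covered in both KO lists, from 17890886 to 17893488, numbered 2603, and every one of them was covered in both WT lists. A further 5553 bp were covered in both WT lists and in neither KO list. When the stretch held by both WT libraries was cut into 3 equal parts, the left part was covered to 74.3% in KO 67 and 70.3% in KO 73, and the middle part to 0% in KO 67 and 33.7% in KO 73. Coverage of the right part was 0% in KO 67 and 43.1% in KO 73. Both WT libraries covered each part to 100%.

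The outer edges moved unequally. The left edge of KO 67 lay between the WT left edges, which stood 371 bp apart, and that of KO 73 lay 186 bp inward of the inner one. On the right, where the WT edges stood 142 bp apart, the edge lay 8472 bp inward of the inner WT edge in KO 67 and 1967 bp inward in KO 73. Taken from the mean WT edge, the shift was 162.5 bp on the left and 8543 bp on the right in KO 67, and 371.5 and 2038 bp in KO 73. By either measure the shift on the right was larger than the distance between the WT right edges in both KO libraries. On the left, that of KO 67 was smaller than the distance between the WT left edges, and that of KO 73 was smaller from the inner edge and about equal from the mean edge. In KO 73 a further 3586 bp was lost as 3 inner gaps of 1568, 1315 and 703 bp.

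The first 2 of the KO 73 islands were weak by the authors' score and the third stood nearer the middle of its list. The score is a value that the lists give to each region on an unstated scale and that was used here within a list only. From left to right they ran from 17895094 to 17895594 with a score of 23.2, from 17896910 to 17897673 with 33.3, and from 17898377 to 17899993 with 65.2. Their score percentiles within KO 73 were 8.92, 20.7 and 42.6. The lowest score was 20.2 in KO 67 and 20.3 in KO 73. A stretch without a listed region is therefore not shown to lack the mark. Scores were whole multiples of a step in each list, within 0.055 for scores below 100. The islands stood for 16, 23 and 45 steps, where the lowest score in KO 73 stood for 14. The step was finest in KO 67. Relative to KO 73, depth would be 4.46 in KO 67, 1.66 in WT 66 and 1.04 in WT 74. These ratios hold only if a step is 1 tag and the lists were scaled alike, which is not given. Whether depth bears on the islands was not tested.

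By score the domain ranked near the top of both WT lists and lower in both KO lists. Its left piece was at place 1157 of 10502 in KO 67 and 1401 of 12497 in KO 73. In the WT lists the domain was at place 6 of 14078 in WT 66 and place 6 of 14551 in WT 74. By width, the left piece was at place 254 in KO 67 and 437 in KO 73, and the domain was first in both WT lists. The next widest WT regions were 9515 bp in WT 66, on chromosome 9, and 9884 bp in WT 74, on chromosome 17.

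Per kilobase the score of the domain lay near the middle of each list. The left piece stood at the 52.0th percentile of score per kilobase in KO 67 and the 57.6th in KO 73, and the whole domain at the 53.7th in WT 66 and the 59.4th in WT 74. The islands of KO 73 were lower on this measure, at percentiles 26.6, 20.4 and 6.06. The left piece thus stood within its list near the place that the whole domain had in WT, and the islands stood below it. This sets a part in KO against the whole in WT, because the WT lists give no score for the left part alone. Whether the left part kept its WT score per kilobase is not shown.

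Among the broadest WT regions the Tssk domain was one of many that were shorter in the null testes. A union region was called broad if it held a region of at least 7000 bp in WT 66 or WT 74, which gave 22 in all and 21 besides the Tssk domain. In all 21 of the others, KO 67 and KO 73 each covered less than either WT library. Over all regions present in both WT libraries this held for 54.8% of 12560. Broad regions were chosen by their WT width, so nothing is read from the comparison of these shares. The widest region of any kind was 5854 bp in KO 67 and 6953 bp in KO 73. No single KO region therefore reached 7000 bp, and the count of 21 was largely set by the choice. KO covered length was 36.2% of WT in the Tssk domain and ranged from 17.3% to 79.9% in the others, with a median of 47.5%. Only 4 of the 21 kept a smaller share, so by this measure the Tssk domain was within the range of its class.

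Those 4 regions were on chromosomes 11, 19 and 13. On chromosome 11, a region starting at 103360301 and ending at 103367897 measured 632 bp in KO 67 and 1868 bp in KO 73, against 6871 bp in WT 66 and 7597 bp in WT 74. On chromosome 19, the region from 5842292 to 5853424 kept 31.2% and that from 45853616 to 45860744 kept 34.9%. The region on chromosome 13 from 23399118 to 23408080 kept 34.9% and was the only other broad region with 4 separate pieces in KO 73. At the other end, regions at 81210656 to 81218300 of chromosome 12, at 127527049 to 127535254 of chromosome 10 and at 83111073 to 83118518 of chromosome 11 kept 79.9%, 79.2% and 69.9%. The 5 widest of the others, with WT means of 8433.5 to 9465.5 bp, kept from 31.2% to 55.9%.

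The place of the domain in this order depended on the KO library. It covered 24.4% of the WT mean in KO 67, where 2 of the 21 other regions covered less, and 47.9% in KO 73, where 8 did. KO 73 covered more than KO 67 in the Tssk domain and in 18 of the other 21. With KO 73 and WT 74 alone, 10 of 19 others kept a smaller share than the Tssk domain, and without WT 74 it was 2 of 13.

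**Figure D2:**
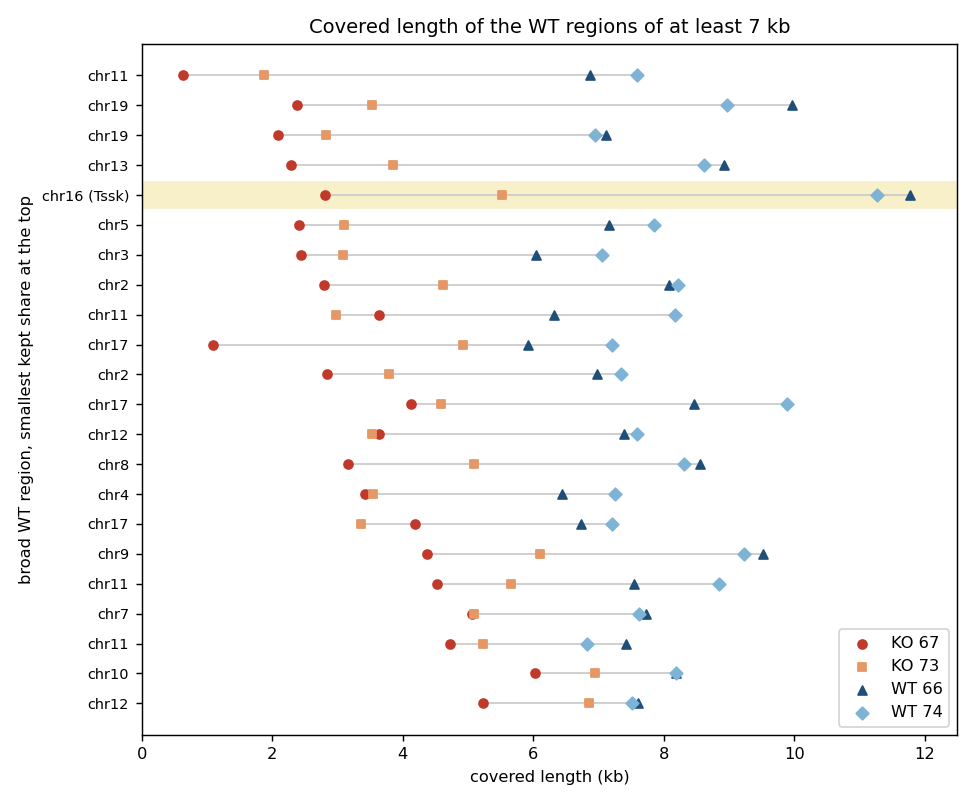
Covered length in kb of the 22 broad WT regions in each library, ordered by the share kept in KO with the smallest at the top, and with the Tssk domain shaded. The KO points lie left of the WT points in every row, and the WT points of the Tssk domain, at 11774 and 11261 bp, lie furthest right.

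**Figure D3:**
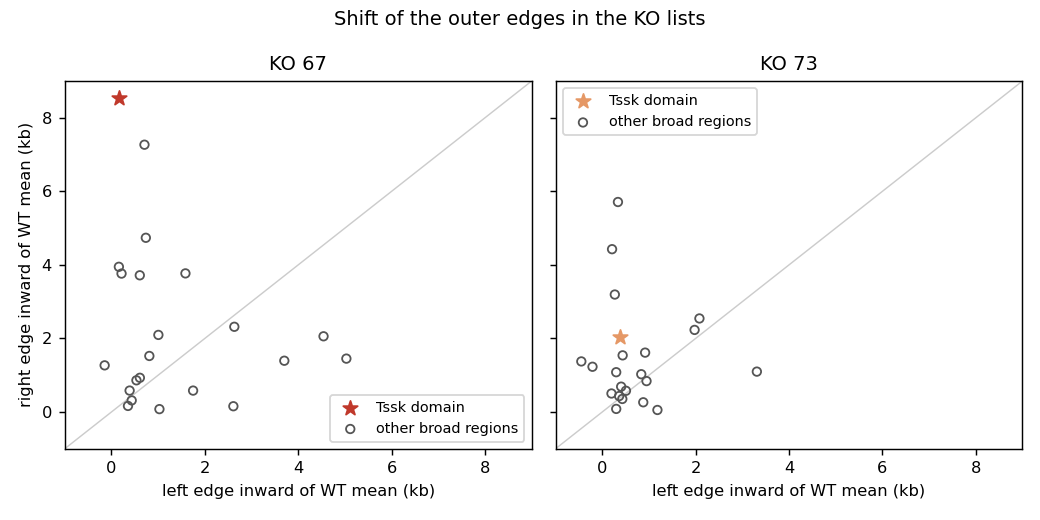
Inward shift of the right edge against that of the left edge, in kb from the mean WT edge, for the Tssk domain (star) and the 21 other broad regions (circles) in KO 67 and KO 73, with a line of equal shift. In KO 67 the Tssk star is the highest point, at 8543 bp on the right and 162.5 bp on the left, and in KO 73 it lies among the circles.

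One-sided retreat was not confined to the Tssk domain. In KO 67 the right edge accounted for 98.1% of its edge shift, and 1 of the 21 others had an equal or larger share on 1 side. The median of the others was 72.6%. In KO 73 the right edge accounted for 84.6%, and 6 of the 21 others reached that share on 1 side. The right shift of 8543 bp in KO 67 exceeded that of each of the 21 others, whose range was 78.5 to 7268.5 bp, in a domain that was also the widest. Inner gaps of 3586 bp in KO 73 were exceeded in 1 of the 21. On chromosome 3, a region chosen for mention after its values were seen, from 95031154 to 95038201, kept its left end in a like way, with 160 bp lost on the left and 3948.5 bp on the right in KO 67 and 270 and 3194.5 bp in KO 73.

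Around the threshold by width in WT 66, the 3 regions just above 7000 bp in WT 66 measured 7163, 7114 and 7079 bp there, and the 3 just below measured 6977, 6880 and 6871 bp. The one of 7079 bp is 1 of 2 pieces of the chromosome 19 union region from 5842292 to 5853424, which covered 9960 bp in WT 66. KO lengths below are those of whole union regions. Of the 3 below, 2 were broad all the same by their width in WT 74 (7350 and 7597 bp), and the one of 7597 bp is the region on chromosome 11 that kept the smallest share. The regions above covered from 2083 to 2407 bp in KO 67, and those below from 632 to 2838 bp. In KO 73 they covered from 2822 to 3530 bp above the threshold and from 1868 to 3792 bp below it.

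Most of the neighbours found in both WT libraries kept a larger share of their WT length than the domain did. KO covered length was from 84.6% to 95.2% of WT in 7 of the 8 neighbours found in all 4 libraries. It was 33.6% in the remaining 1, which is less than the 36.2% in the Tssk domain. The contrast with the domain was not tested because the domain was chosen for its width. Within 200 kb of a window drawn around the domain, which holds no other region, there were 11 other union regions, of which 9 were found in both WT libraries and 8 in all 4. The remaining 2 were found in WT 74 alone, with 501 bp at 74340 bp to the left of the domain and 632 bp at 186722 bp to the right. None of the 9 was absent from both KO libraries, where 11.8% of all regions present in both WT libraries were. Each KO library covered less than either WT library in 5 of the 9, a share near the 54.8% of all such regions.

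Width was tested with limma on log2 covered length over the 9742 regions found in all 4 libraries, with Benjamini-Hochberg adjustment and a threshold of 0.05. Of the 8 shared neighbours, 1 was called narrower in KO, and 3.6% of all shared regions were. The neighbour called lay 125396 bp to the right, from 18027499 to 18029517, and measured 501 bp in KO 67 and 719 bp in KO 73, against 1613 bp in WT 66 and 2019 bp in WT 74. Its log2 change was -1.59 ± 0.25 (SE), with a limma adjusted p of 0.0411. The KO 67 value equals the narrowest region of any list, and the scores of 20.2 in KO 67 and 26.1 in KO 73 lay near the lowest of their lists. The call was lost without any 1 of KO 67, KO 73, WT 66 or WT 74 (limma adjusted p from 0.0852 to 0.378), without a variance trend (0.0591) and with library medians subtracted or quantile normalization (0.108 and 0.102).

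The 7 other shared neighbours were not called. Their log2 changes ran from -0.24 to -0.076 with a median of -0.12, where the median of all shared regions was -0.18, and 6 of the 7 lay above 0 once library medians were subtracted and 5 after quantile normalization. Those scalings moved the median of all shared regions to 0.054 and 0.067. Relative to the unscaled median the 7 lay from -0.062 to 0.10, and the neighbour called lay at -1.41. Their limma adjusted p ran from 0.419 to 0.847. They covered from 988 to 1785 bp in the 4 libraries. The nearest on the left, 81898 bp away, covered 1615 and 1592 bp in KO 67 and KO 73 against 1704 and 1688 bp in WT 66 and WT 74. The nearest on the right, 8552 bp away, covered 1057 and 988 bp in KO 67 and KO 73 against 1175 and 1052 bp in WT 66 and WT 74. This was the closest region to the end of the domain that was reduced, and its KO and WT values lay within 187 bp of each other. The pair beyond it covered 1353 and 1527 bp in KO against 1620 and 1785 bp in WT at 19207 bp, and 1163 and 1288 bp in KO against 1383 and 1452 bp in WT at 25237 bp.

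Of the 9 neighbours in both WT libraries, the smallest was the 1 not shared by all lists. It lay 12136 bp to the right, from 17914239 to 17914988, was not listed in KO 67, and covered 501 bp in KO 73 against 671 bp in WT 66 and 501 bp in WT 74. Its scores were low in each list that held it, at 23.2 in KO 73 and 28.8 and 22.3 in WT. The 3 neighbours not yet given, at 166890 and 129682 bp to the left and 163731 bp to the right, covered from 1087 to 1587 bp in KO and from 1227 to 1711 bp in WT.

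**Figure D4:**
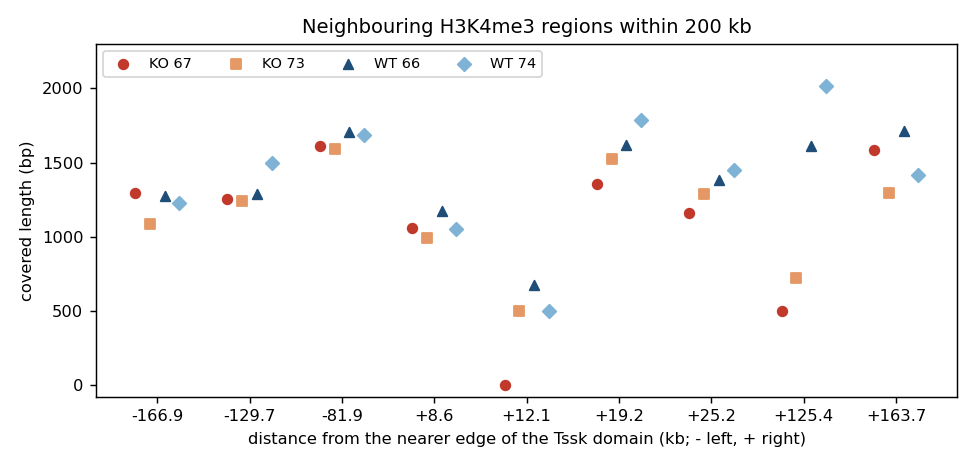
Covered length in bp of the 9 neighbours found in both WT libraries, by distance in kb from the nearer edge of the Tssk domain, with KO points left of WT points at each position. The neighbour at 125.4 kb to the right shows the widest gap, with 501 and 719 bp in KO against 1613 and 2019 bp in WT.

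Summed over the neighbourhood without the window, covered length was 9826 bp in KO 67 and 10240 bp in KO 73, against 12437 bp in WT 66 and 13768 bp in WT 74. The mean was 10033 ± 293 bp in KO and 13102.5 ± 941 bp in WT (SD, n = 2 each), with KO at 76.6% of WT. The 2-sided exact permutation p was 0.33 over 6 labelled splits, the smallest this design allows, so the difference could not reach significance. The whole lists also covered less in KO, with 14.4724 Mb in KO 67 and 16.0962 Mb in KO 73. They covered 22.0255 Mb in WT 66 and 21.2149 Mb in WT 74. Whether the neighbourhood lost more than the whole lists was not tested, so the 76.6% is not read as a local loss. The Tssk domain made up 22.3% of the covered length of the whole neighbourhood in KO 67 and 35.0% in KO 73, against 48.6% in WT 66 and 45.0% in WT 74.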

How the data were processed

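Region lists of 4 H3K4me3 libraries were analysed, and the 4 input libraries of the series were not analysed here. The submitters' processing notes name Bowtie, HOMER and the build mm9. Their versions and settings, filters and any use of inputs are not stated there. Regions were called per library, as the deposited lists show, and each deposited score is the authors' own value on an unstated scale. Absolute depth is unknown. The members, lists and tests were chosen with earlier results of these data known.

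Starts were converted to count from 1. Regions were merged across lists where they overlapped or touched, and presence needed at least 1 bp of overlap. Log2 covered lengths, without a pseudocount, were tested with limma 3.58.1 in R 4.3.3 (eBayes with a variance trend), and the step was tested on simulated widths. Summed lengths had an exact permutation test. Named were the Tssk domain, the neighbours within 200 kb in both WT libraries, and, of the other broad regions, the 5 widest, the 3 that kept the smallest and the 3 that kept the largest share, and those next to 7000 bp in WT 66. A region on chromosome 3 was named outside this rule, after its values were seen. Promoter windows were matched by symbol. Protein sequences and loci of other Tssk and spermatid genes had been planned and were not analysed here, for lack of a protein table and of mm9 gene positions.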

Additional observations from a re-analysis of the deposited data

How the results depend on the processing

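No paired analysis was possible because the KO and WT libraries share no replicate number. Of 177 recomputed values, 122 kept their direction and their side of the threshold or stayed within the spread. The KO minus WT covered length of the Tssk domain ran from -8705.5 bp (without KO 73) to -5995.5 bp (without KO 67), and was -5739 bp with KO 73 and WT 74 alone. KO 73 had 2 pieces in place of 4 with the lowest 25% of scores dropped. It had 3 with lists held to the shortest length or gaps of up to 1000 bp merged. Each KO library covered less than either WT library in all other broad regions by each rule for broad but merged gaps (33 of 34). The number was 11 with 7000 bp in both WT lists, 44 at 6000 bp, 8 at 8000 bp, and from 13 to 21 with 1 library left out. Choice by WT width favours such counts under each rule, so nothing is read from them. Those that kept a smaller share than the Tssk domain were 4 of 21, and 9 of 34 with gaps merged, 2 of 11, 10 of 44 and 1 of 8 by the other rules for width.

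The count of neighbours called by limma was 0 within 100 kb, without a variance trend, with library medians subtracted, with quantile normalization, with the lowest 25% of scores dropped, with lists held to the shortest length, and without any 1 library. At an unadjusted p under 0.05 it was 1 in each of these except within 100 kb and in both shortened lists, where it was 0. The neighbour lies beyond 100 kb, and the shortened lists did not hold it in all 4 libraries. Its log2 change ran from -1.85 to -1.33 with adjusted p from 0.0591 to 0.378 where it was lost. Neighbours in all 4 libraries numbered 4 within 100 kb and 17 within 500 kb. Calls over all regions numbered 352, and were 98 without a trend, 80 with medians subtracted, 56 after quantile normalization and 0 without any 1 library (1090 to 1924 at an unadjusted p under 0.05), where a genotype has a single library that is assumed to vary like the other. No limma fit was possible with KO 73 and WT 74 alone.

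Changes of uncalled neighbours, named by their start, that turned positive were 0.049 (17722055) and 0.030 (18065834) without KO 73 and 0.023 (18065834) without WT 66, in ranges over libraries left out of -0.20 to 0.049 and -0.26 to 0.030. With library medians subtracted they were 0.16 (17722055), 0.081 (17759149), 0.15 (17806706), 0.11 (17910655), 0.023 (17927340) and 0.12 (18065834), and after quantile normalization 0.13 (17722055), 0.063 (17759149), 0.16 (17806706), 0.091 (17910655) and 0.11 (18065834). The cause of these turns was not tested. With 2 libraries a genotype and an unknown absolute depth, a stretch outside the lists may still carry the mark below the lowest scores of about 20.2.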
